A study of Homo sapiens with 2 samples.

Results

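The lid is a part of the 19S regulatory particle, the cap of the proteasome, and its subunit PSMD14 cuts ubiquitin chains from substrates. The lid is built from the products of 9 genes: PSMD3, PSMD6, PSMD7, PSMD8, PSMD11, PSMD12, PSMD13, PSMD14 and SEM1, which older annotations call SHFM1. The genes were taken by name, out of 20163 protein-coding genes of the GENCODE annotation on hg19. A peak was assigned to a gene when its centre lay within 20 kb of an annotated transcription start site (TSS) of that gene, or when the study's own site list gave it for the gene. This gave 10 of the 5683 deposited peaks, and the site list named the same gene for all 10.

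The peaks come from 1 chromatin immunoprecipitation (ChIP-seq) library, made with an antibody against NRF1 from HCT116 cells that had been kept in the proteasome inhibitor MG132 at 1 µM for 16 h. HCT116 is a human colorectal carcinoma line. An input library of cells given the same treatment was not analysed here, and cells without MG132 were not analysed here either, so every value below describes inhibited cells. Each peak carries a score from the caller MACS, which grows as the p-value gets smaller (−log10 p, multiplied by 10). With 1 library there is no replicate error and the read depth is unknown. Scores were therefore ranked and compared only within this peak list, and no test was run.

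NRF1 in this study is NFE2L1, a CNC-type bZIP transcription factor, and not nuclear respiratory factor 1, which shares the abbreviation. It is made as a protein of the endoplasmic reticulum, and when the proteasome is blocked it is cut, reaches the nucleus and binds antioxidant response elements (AREs) together with small MAF proteins. Proteasome genes are its best known targets. The lid lies along the side of the ATPase base and the 20S core, and it strips ubiquitin chains from substrates on their way into the core. PSMD14 is the metalloprotease that cuts the chain, and PSMD7 is its catalytically inactive partner of the same MPN fold. PSMD3, PSMD6, PSMD8, PSMD11, PSMD12 and PSMD13 are long helical proteins with a PCI domain, and SEM1 is a small acidic protein that tethers PCI subunits to each other.

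The sequences that best matched the ARE in the highest-scoring peak of each gene are shown first, because they fell into a few shared forms. The full ARE is taken here as TGACTCAGC or TGAGTCAGC, its letters being counted from 1 at the first T, and the best site is the run of 9 bases with the most letters in common with it on either strand, the one nearest to the peak centre where sites tied. Capitals mark these 9 bases, and each sequence is read 5′ to 3′ on the strand of the site with 10 bases on both sides.
PSMD7: agcgtgcccgTGACTCAGCagcggctgcg
PSMD12: ctccgcgccgTGACTCAGCccctggcgcc
PSMD11: cctcacacagTGAGTCAGCagcatcagag
PSMD11: gagccccccgTGAGTCAGCagccggcgag
PSMD14: ctgggcaacgTGACTCAGGaaagcacggg
SEM1: gcgcgaacggTGACTCAGGcctccgtgtg
PSMD3: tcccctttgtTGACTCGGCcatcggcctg
PSMD6: cctaggccgcTGACTCGGCgctcgtgcgg
PSMD13: gcgccggaagTGAGTGAGCatttccggca
PSMD8: ggctacaaccTGCCTCAGCccgccccggg
PSMD7, PSMD11 and PSMD12 held the full ARE. PSMD14 and SEM1 shared the form TGACTCAGG, with the substitution C9G. At SEM1 the other strand of the same element reads TGAGTCACC, with G8C, which ties with it and is 2 bp nearer to the peak centre, and the first form is printed to show the match with PSMD14. In the same way PSMD3 and PSMD6 shared TGACTCGGC, with A7G. The other strand of the PSMD6 element reads CGAGTCAGC, with T1C, which ties with it, at −81 bp from the peak centre against −79 bp. The site of PSMD13 carried C6G, and that of PSMD8, TGCCTCAGC, carried A3C. PSMD6 also held TGCCTCAGC, farther from its peak centre at −245 bp.

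All 9 lid genes had a peak within 20 kb of an annotated TSS, and all 9 also had it within 2 kb and within 500 bp. Among all protein-coding genes, 18.7% had a peak centre within 20 kb of a TSS and 6.03% within 2 kb, and their share within 500 bp is not given here. The best lid peaks had a median score of 430.05 and ran from 119.94 at PSMD13 to 1128.13 at PSMD14, so that the lid genes did not form a tight group. All peaks together had a median score of 91.86, and the best peak of each of the 1215 protein-coding genes with a peak within 2 kb had a median of 99.46. Every lid gene lay above both medians.

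**Figure D1:**
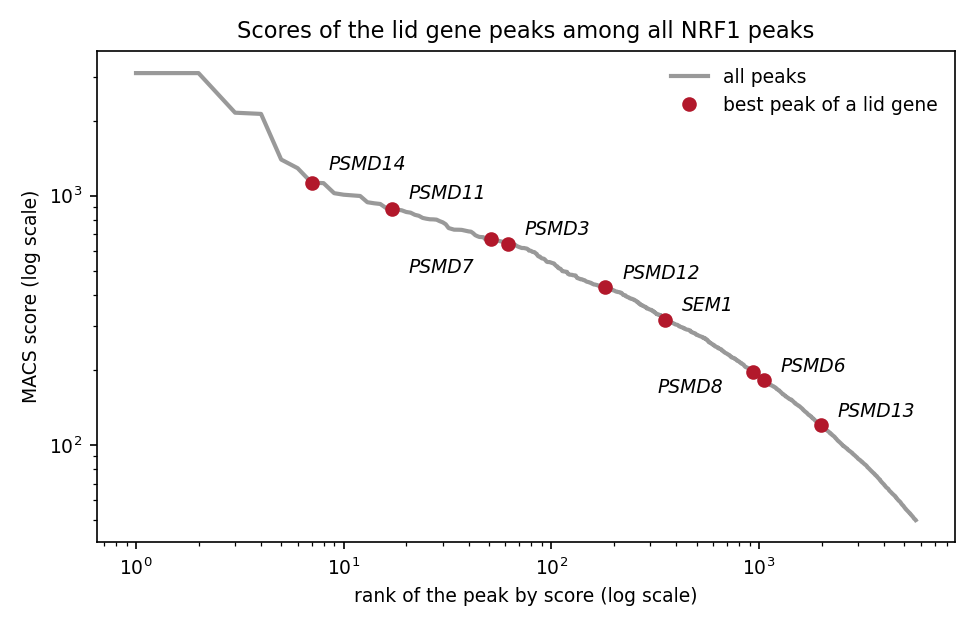
MACS score of each of the 5683 peaks (y axis, log scale) against its rank (x axis, log scale), with the best peak of each lid gene as a labelled point. PSMD14 stands at rank 7, PSMD11, PSMD7 and PSMD3 at 17, 51 and 62, and PSMD13 is lowest at rank 1988.

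Both MPN genes were among the highest peaks. PSMD14, on the plus strand of chromosome 2, had a peak at chr2:162164693-162165499 with a score of 1128.13, rank 7 of all peaks and rank 2 among the 1215 protein-coding genes ranked by their best peak within 2 kb. The peak of PSMD7, on the plus strand of chromosome 16, lay at chr16:74330449-74331237 with a score of 667.71, rank 51 of all peaks and rank 30 among the genes. The 2 peaks were 807 and 789 bp wide, against a median of 501 bp for all peaks.

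The PCI genes spread over most of the range of the lid. PSMD11 encodes the subunit that braces the lid against the 20S core, and it was the highest of the 6, with a peak at chr17:30771315-30772114, a score of 880.07 and rank 17 of all peaks. PSMD3 had a peak at chr17:38136745-38137504 with a score of 641.96 at rank 62. PSMD12 followed at chr17:65361441-65363025 with a score of 430.05 at rank 182. These 3 genes lie far apart on chromosome 17, and the PSMD12 peak was 1585 bp wide, wider than 99.75% of all peaks.

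The other PCI genes had lower scores. PSMD8, whose product joins last and completes the lid, had a peak at chr19:38865167-38865674 with a score of 196.53 at rank 935. The best peak of PSMD6 was at chr3:64008695-64009322 with a score of 181.58 at rank 1058. PSMD13 had the lowest score of the lid, 119.94 at rank 1988, with a peak at chr11:236684-237221. Over the 6 PCI genes the median score was 313.29.

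SEM1 lay between these groups. Its peak at chr7:96338626-96339378 had a score of 318.40, rank 353 of all peaks and rank 141 among the genes. SEM1 has 18 annotated TSSs, and the centre of the peak was 85 bp from the nearest and 156 bp from that of the canonical transcript. A search by the current symbol misses this peak in the study's site list, where the gene stands as SHFM1.

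PSMD6 was the only lid gene with a second peak within 20 kb. It lay at chr3:64016251-64016676, upstream of the gene, with a score of 145.12 at rank 1522 and its centre at −6777 bp from the nearest PSMD6 TSS. No TSS of another gene was as near, the next being that of a long noncoding RNA at 11279 bp. This peak held no ARE, and its best site matched 7 of the 9 bases. For the other lid genes the next peak lay outside the 20 kb window, the nearest of them at 64861 bp from a TSS of PSMD12 with a score of 86.80.

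The best peaks sat at the start of the genes and reached into them. Measured from the TSS of the canonical transcript, 8 of the 9 peak centres lay downstream, with a median of 160 bp, and PSMD13 alone lay upstream at −24 bp. Over the 1209 protein-coding genes with a best peak within 2 kb of any TSS and a canonical transcript, the centre was downstream in 57.2%. Their median of 128 bp was close to that of the lid, but the spread was not. Their quartiles were −492 and 5354 bp, against 131 and 186 bp for the lid genes. The narrow spread was not particular to the lid. In the genes of the ATPase ring the best peak centres ran from −24 to 180 bp from the canonical TSS. They ran from 97 to 359 bp in those of the 20S alpha ring and from −130 to 148 bp in those of the constitutive 20S beta ring. The lid centres fell in the untranslated part of exon 1 at PSMD14 (160 bp) and PSMD3 (64 bp). They fell in the coding part of exon 1 at PSMD7 (131 bp), PSMD6 (162 bp), PSMD8 (209 bp) and SEM1 (156 bp). At PSMD11 (186 bp) and PSMD12 (460 bp) they fell in intron 1.

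**Figure D2:**
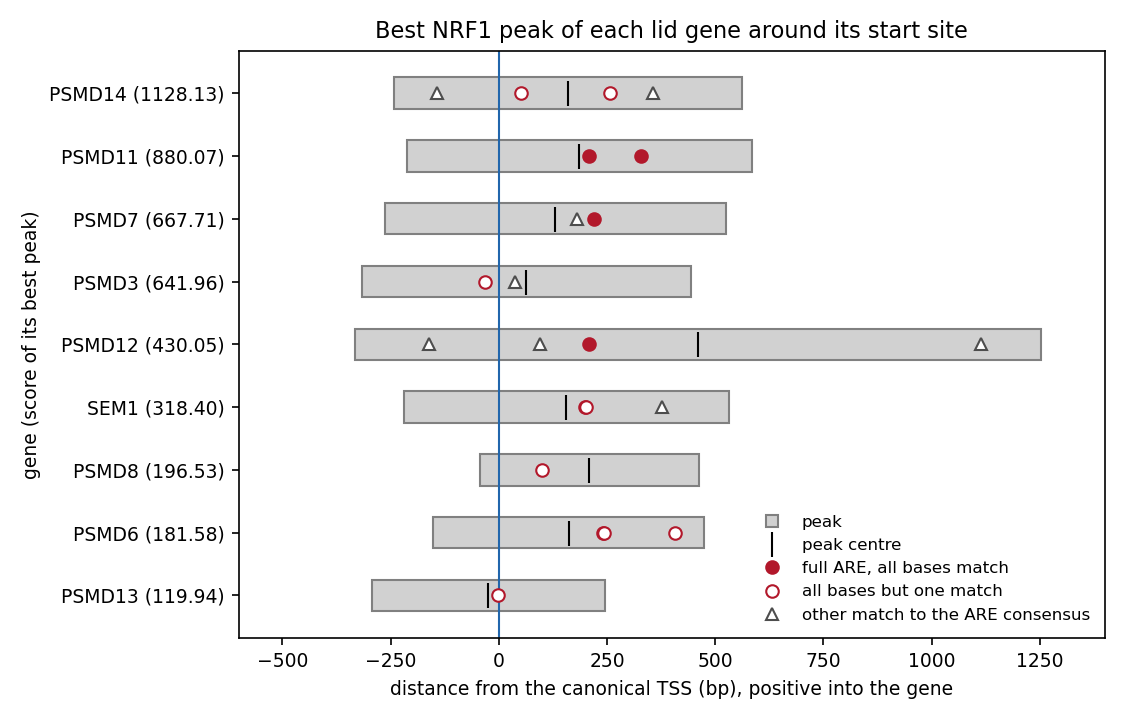
Best peak of each lid gene (grey bars) placed by distance from the canonical TSS in bp (x axis, positive into the gene), ordered by score (y axis). Black ticks are peak centres, filled circles full AREs, open circles sites with 8 of the 9 bases and triangles other matches to the shorter ARE consensus; the filled circles of PSMD7, PSMD12 and the first of PSMD11 stand at 220, 208 and 208 bp.

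Most of the best sites lay in the first intron. Counted at its middle base, the site shown above was 201 bp downstream of the canonical TSS at SEM1, 208 bp at PSMD11 and PSMD12, 220 bp at PSMD7, 241 bp at PSMD6 and 256 bp at PSMD14. All 6 lie in intron 1 of the canonical transcript, and that of PSMD14 also lies in an untranslated exon of another transcript. The other sites were at 100 bp in the coding part of exon 1 of PSMD8, at −33 bp in front of PSMD3 and across the start of PSMD13, at −1 bp. How often the best site lies in intron 1 of other genes is not given here, so the count of 6 has no background beside it.

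The positions were set beside those of all protein-coding genes whose best peak within 2 kb of a TSS held a site matching at least 8 of the 9 bases. In 508 genes that site lay within 2 kb of the canonical TSS, with a median position of −73 bp, and it was downstream in 44.3% of them. Between 150 and 300 bp downstream there were 33 of the 508 genes (6.5%), and 6 of the 33 were the lid genes named above. The position was not particular to the lid: 8 more of the 33 encode other proteasome subunits, PSMC3 (195 bp), PSMD2 (205 bp), PSMB7 (213 bp), PSMA4 (220 bp), PSMD4 (222 bp), PSMA1 (234 bp), PSMC5 (237 bp) and PSMD1 (237 bp), which are named after their values were seen. The remaining 19 are no PSMA, PSMB, PSMC, PSMD or lid genes. Further PSMA, PSMB and PSMD genes among the 508 had the site outside the interval: PSMD9 (−223 bp), PSMB2 (21 bp), PSMB1 (30 bp), PSMA5 (345 bp), PSMB5 (362 bp) and PSMA3 (368 bp). This interval was set after the positions had been seen, and the counts are a description.

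**Figure D3:**
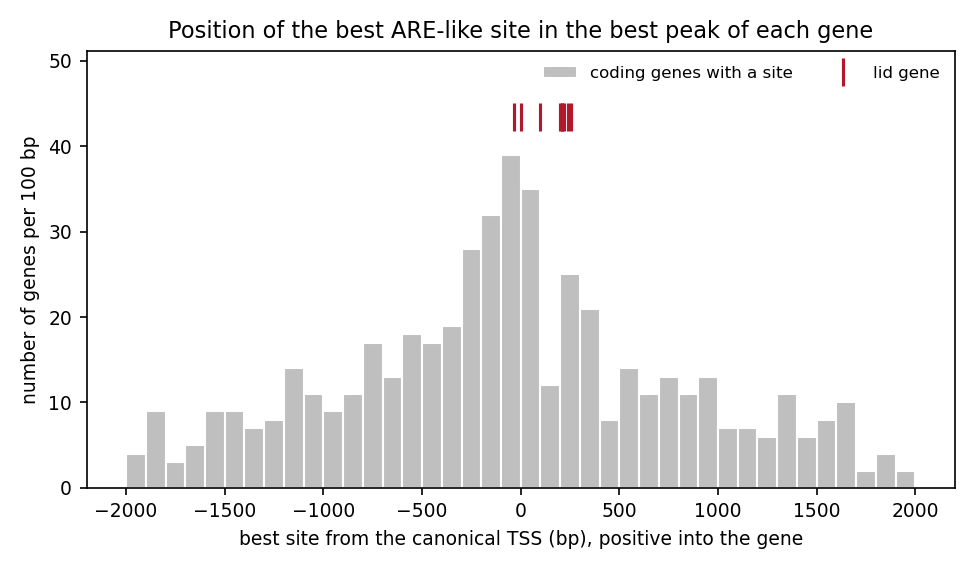
Position of the best site in the best peak of 508 protein-coding genes (grey bars, number of genes per 100 bp) by distance from the canonical TSS in bp (x axis, positive into the gene), with the 9 lid genes as red ticks. The lid ticks run from −33 to 256 bp, and 6 of them stand between 199 and 256 bp, SEM1 being drawn at its other-strand reading.

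The surroundings of the intronic sites can be read in longer stretches, given here on the strand of each gene, with the site and any other match to TGACNNNGC or TGAGNNNGC in capitals. They are shown for the 5 genes whose intronic site lies outside any annotated untranslated region, and PSMD11 holds the full ARE in 2 places.
PSMD11, chr17:30771722-30771871: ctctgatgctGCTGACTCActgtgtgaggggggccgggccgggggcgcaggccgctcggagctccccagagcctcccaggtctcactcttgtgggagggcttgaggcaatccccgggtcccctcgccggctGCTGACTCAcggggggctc
PSMD7, chr16:74330888-74330976: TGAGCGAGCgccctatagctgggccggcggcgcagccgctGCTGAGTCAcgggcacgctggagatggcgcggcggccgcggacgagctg
PSMD12, chr17:65362441-65362529: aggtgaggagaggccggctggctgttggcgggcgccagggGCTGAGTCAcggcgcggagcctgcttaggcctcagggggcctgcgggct
PSMD6, chr3:64008885-64008973: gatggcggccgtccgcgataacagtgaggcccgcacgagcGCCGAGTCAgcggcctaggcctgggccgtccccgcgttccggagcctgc
SEM1, chr7:96338913-96339001: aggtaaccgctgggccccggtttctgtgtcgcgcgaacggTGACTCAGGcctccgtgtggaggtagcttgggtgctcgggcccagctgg
The 2 AREs of PSMD11 started 121 bp apart and faced the same way. At PSMD7, PSMD11 and PSMD12 the site, read in the ARE's own direction, runs against the direction of transcription, as does the best site of PSMD14. At PSMD6 and SEM1 the direction is not settled, because both strands of the element match 8 of the 9 bases. The PSMD6 element reads TGACTCGGC against transcription and CGAGTCAGC along it.

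The full ARE was held by 3 of the 9 best lid peaks, or 33.3%. It was held by 43.2% of the 1122 peaks within 2 kb of a protein-coding TSS and by 61.3% of all peaks. The remaining 6 lid peaks matched the full ARE in 8 of the 9 bases, so that all 9 had a site with at least 8. This share was 89.1% over all peaks. The 18 flanks of the lid peaks are as long as the peaks and begin 2 kb away on both sides. None of them held the full ARE, which only 1.37% of the flanks of all peaks held. A site with at least 8 of the bases was in 9 of the 18 (50%), against 31.5% of the flanks of all peaks. Sites with a single substitution were thus common next to the lid peaks too. The count of 8 or more bases was introduced after the sites had been seen.

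**Figure D4:**
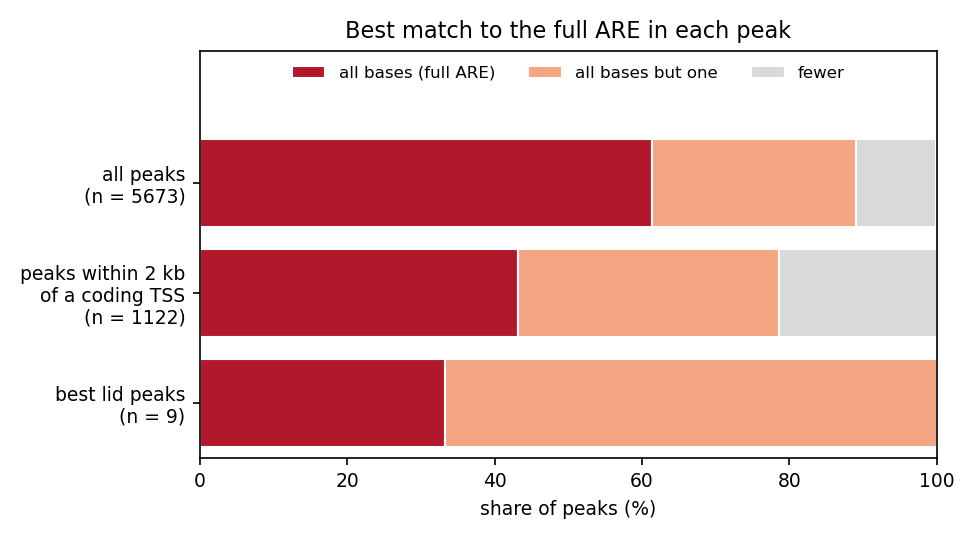
Share of peaks in percent (x axis) by the best match to the full ARE, for the 9 best lid peaks, the 1122 peaks within 2 kb of a protein-coding TSS and all 5673 peaks with sequence. The full ARE takes 33.3%, 43.2% and 61.3% of the bars, and a site with a single substitution 66.7%, 35.4% and 27.7%.

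By the shorter consensus TGACNNNGC or TGAGNNNGC, 8 of the 9 best lid peaks held an ARE, against 87.4% of all peaks, and PSMD8 was without one. In the central 200 bp the count fell to 5 of 9, against 80.2% of all peaks. Over peaks within 2 kb of a protein-coding TSS the share was 85.2% in the whole peak and 74.2% in its central 200 bp. The median gap between the peak centre and its closest ARE was 64 bp in the 8 lid peaks with an ARE. It was 29 bp in all peaks with an ARE and 33 bp in those within 2 kb of a protein-coding TSS. The lid peaks were wide, with a median of 760 bp, and the deposited list gives no summit, so that the distance of a site from the point of highest signal is unknown.

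High scores were also found without a full ARE. PSMD14, at the top of the lid, had none. Its consensus matches were TGACCCTGC and TGAGGCGGC, at 356 and −142 bp from the TSS and 196 and −302 bp from the peak centre. Nearer to the centre stood the TGACTCAGG shown above, at 96 bp, and TGAATCAGC, at −109 bp in exon 1, each with 8 of the 9 bases. Of the 100 highest peaks with sequence, 31 likewise lacked the full ARE, and 4 of the 100 were lid peaks, with PSMD14 and PSMD3 lacking it and PSMD11 and PSMD7 holding it.

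The shared forms were not equally frequent in the list. TGACTCAGC, found at PSMD7 and PSMD12, was present in 49.7% of all peaks, and TGAGTCAGC, found at PSMD11, in 13.8%. TGACTCAGG, shared by PSMD14 and SEM1, was in 5.11% of all peaks and TGACTCGGC, shared by PSMD3 and PSMD6, in 1.67%. TGCCTCAGC, held by PSMD8 and PSMD6, was in 6.1%. Among peaks within 2 kb of a protein-coding TSS, TGACTCAGC was in 34%, TGAGTCAGC in 11.4%, TGACTCAGG in 5.61%, TGACTCGGC in 3.39% and TGCCTCAGC in 4.81%. The base just before the site was G at each full ARE of the lid peaks, at PSMD13 and at the TGACTCAGG sites of PSMD14 and SEM1. It was T at PSMD3 and C at PSMD6, PSMD8 and the other-strand reading of SEM1. Among the best full AREs it was G in 30.2% and A in 61.3% over all peaks, and G in 36.9% and A in 49.5% over peaks within 2 kb of a protein-coding TSS.

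Other promoter motifs were searched on both strands. The AP-1 core TGACTCA or TGAGTCA, which overlaps the first 7 bases of the full ARE, was in 5 of the 9 best lid peaks, at PSMD7, PSMD11, PSMD12, PSMD14 and SEM1. This is 55.6%, against 75% of all peaks and 56.3% of those within 2 kb of a protein-coding TSS, so that the lid share is that of peaks near promoters. The CCAAT box (CCAAT) was in 6 lid peaks, in 50.6% of all peaks and in 45.7% of those near a protein-coding TSS. The GC box (GGGCGG) was in 7 lid peaks, in 17.4% of all peaks and in 44.4% of those near a protein-coding TSS. The core motif of nuclear respiratory factor 1 (GCGCATGC) was in none of the 9, in 1.18% of all peaks and in 3.03% of those near a protein-coding TSS. The lid peaks had a median GC content of 64.96%, against 45.33% for all peaks and 54.58% near protein-coding TSSs, and the part of GC content in these motif counts was not tested.

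Some of the lid peaks lay close to the start of a second gene. At PSMD13 the peak centre lay at −21 bp from the nearest TSS of SIRT3, which encodes a mitochondrial deacetylase and is transcribed away from PSMD13. At PSMD14 and PSMD7 the divergent noncoding RNAs PSMD14-DT and PSMD7-DT run the other way, and the peak centre lay at −196 and −183 bp from their nearest TSS. A further noncoding RNA began 1342 bp from the centre of the PSMD11 peak. A peak list does not say which of these genes a site serves.

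The lid was set beside the other parts of the proteasome by counts and medians, without a test. All 6 genes of the ATPase ring, all 7 of the 20S alpha ring and all 7 of the constitutive 20S beta ring had a peak within 2 kb of a TSS, as did the 9 lid genes. The median best score was 430.05 for the lid, 266.56 for the ATPase ring, 305.06 for the alpha ring and 296.08 for the beta ring. The ranges overlapped: the highest scores of the other lists were 412.41 at PSMC3, 681.29 at PSMA1 and 614.43 at PSMB7, and the lowest were 144.19 at PSMC4, 90.61 at PSMA2 and 223.26 at PSMB3. PSMD14 and PSMD11 stood above every gene of these 3 lists, and PSMD13 below all of them but PSMA2.

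**Figure D5:**
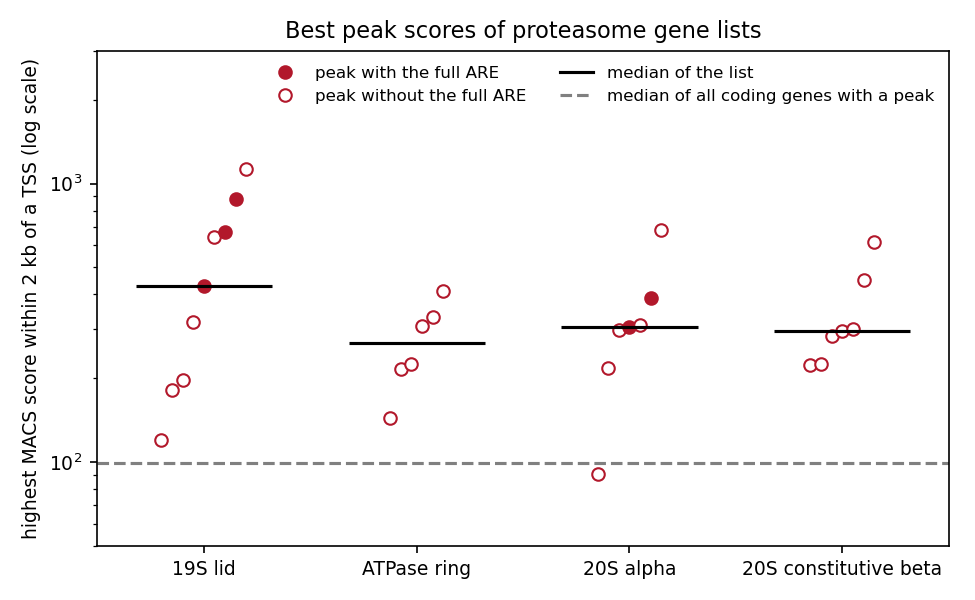
Highest MACS score within 2 kb of a TSS (y axis, log scale) for each gene of the lid, the ATPase ring, the 20S alpha ring and the 20S constitutive beta ring. Points are genes, filled where the peak holds the full ARE, black lines are list medians and the dashed line is the median of 99.46 over protein-coding genes with a peak; the lid has the widest spread, from 119.94 to 1128.13.

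The full ARE was in the best peak of 3 of the 9 lid genes, 2 of the 7 alpha genes, and in none of the 6 ATPase or 7 beta genes. A site with at least 8 of the 9 bases was found at 9 of 9 lid genes, 2 of 6 ATPase genes, 4 of 7 alpha genes and 4 of 7 beta genes. Of the peaks within 2 kb of a protein-coding TSS, 43.2% held the full ARE and a further 35.4% had a best match of 8 bases. The count of 8 or more bases was introduced after the lid sites had been seen. The best lid peaks were also wider than peaks near protein-coding TSSs, with medians of 760 and 518 bp, and the part of width was not tested. These lists are short, and the counts describe them only.

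The COP9 signalosome and the eIF3 translation factor contain PCI and MPN proteins of the same kind as the lid, the COP9 complex being its closest structural relative. None of the 10 COP9 genes and none of the 8 eIF3 genes of this class had a peak within 2 kb of a TSS. Over all protein-coding genes that share is 6.03%, so that a count of 0 in lists this short is near the background. Within 20 kb there were peaks at 3 COP9 genes, COPS7A (score 171.41), COPS6 (99.17) and GPS1 (56.64), and at 2 eIF3 genes, EIF3E (200.46) and EIF3M (83.20), which are named after their values were seen. The 18.7% of all protein-coding genes with a peak at this distance is the level to read these counts against.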

How the data were processed

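The authors sequenced the NRF1 ChIP library with single-end reads, mapped them to hg19 with Bowtie2 2.2.6 and called peaks with MACS 1.4.2. The settings of MACS, the removal of duplicates and the control library are not given in the sources used here. The deposited file gives each peak's start, end and score, and no counts. Coordinates are given from 1, on hg19. Positions of genes came from GENCODE v44 lifted to the same build, with the Ensembl canonical transcript for positions within a gene. AREs were searched on both strands in 5673 peaks on chromosomes 1 to 22, X and Y without undetermined bases. Matches that overlap count as 1 site. Flanks began 2 kb from the peak edge.

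The members, the gene lists and the alternatives were chosen with earlier results of these data known. Named are all members, the genes that start within 2 kb of their best peak, and the extremes of the comparison lists. The study's site list served only to assign peaks, and its array values were not used here. The search found 200 of 200 exact copies of the full ARE planted in simulated sequences. This checks the code only and says nothing about how well the search finds bound sites. Python 3.11.15, numpy 2.4.6, pysam 0.24.0 and matplotlib 3.10.9 were used.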

Additional observations from a re-analysis of the deposited data

How the results depend on the processing

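The count of lid genes with a peak stayed at 9 within 2 kb, within 500 bp, from the peak edge and with a score of at least 100, and was 6 with a score of at least 200, without PSMD6, PSMD8 and PSMD13. The share of all protein-coding genes at 500 bp or at these scores is not given here, so those counts have no background beside them. The median best score was the same with the peak nearest to a TSS and with peaks within 2 kb only. The median distance of the peak centre from the nearest TSS was 85 bp, and it became 160 bp from the canonical TSS and 173 bp for the ARE nearest to the centre in the 8 peaks with one. The count of best peaks with the ARE consensus went from 8 to 5 in the central 200 bp, and to 1 and 3 in the left and right flanks. Both flanks together held it in 22.2%, against 32.8% of the flanks of all peaks. The count with the full ARE went from 3 to 2 in the central 200 bp and to 0 in either flank. Among the flanks of all peaks 1.37% held the full ARE. The count became 9 when 8 of the 9 bases sufficed, a setting added after the data were seen. With 1 library no replicate could be left out, and depth is unknown.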

Other observations

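RefSeq promoter windows, which run from 250 bases before to 50 bases after a start on GRCh38.p14, were searched for the same motifs. The 9 lid genes have 11 such windows, 3 of them at SEM1, and none held the full ARE, against 0.977% of all 35116 windows. The consensus TGACNNNGC or TGAGNNNGC was in 6 of the 11, against 29.1% of all windows. The intronic sites described above lie past the downstream end of these windows, so that a search of them alone does not reach the sites at PSMD6, PSMD7, PSMD11, PSMD12, PSMD14 and SEM1.

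Of the 5 annotated pseudogenes of lid genes, 1 had a peak within 20 kb, a share near the 18.7% of protein-coding genes at this distance, and nothing particular to the pseudogenes is read from it. PSMD8P1 had 2, with scores of 94.51 and 54.87 at −7598 and −3418 bp from its start, and neither overlapped it. The first of these lay nearer to a start of IL6R, at 6608 bp.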
